A study of Mus musculus with 3 samples.

Results

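Cluster 8 of the authors' cell annotation held 419 of the 15242 retinal cells of the series, and its members are the cells that the deposited cell table assigns to that cluster. The cells carried the marker genes Irx6, Erbb4, Hcn4 and Fezf2, which mark subsets of OFF cone bipolar cells. Single-cell RNA sequencing was run on 3 libraries of dissociated retina from C57BL/6J mice aged 8 weeks, and all mice lived in the dark from birth. The WT library was wildtype on base chow, the rd10-vehicle library came from mice with the rd10 mutation of Pde6b, the rod phosphodiesterase subunit, on the same base chow, and the rd10-TMB library came from rd10 mice that ate chow with tamsulosin, metoprolol and bromocriptine. Each group was 1 library, made by pooling a retina from each of 4 mice according to the labels, while the study's methods give fewer mice for the rd10 groups, so no difference between groups had a replicate check. Both rd10 libraries were labelled female. The study's methods give female and male mice for WT, and 78 of its cluster 8 cells had a UMI of Xist and 45 had a UMI of a Y-linked gene, while no rd10 cell of cluster 8 had a Y-linked UMI, so sex and genotype cannot be told apart in part of this comparison.

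Bipolar cells carry the signal of photoreceptors to the inner retina. OFF cone bipolar cells depolarize when light dims, because their dendrites hold ionotropic glutamate receptors of the kainate and AMPA classes at their contacts with cones, while ON bipolar cells use the metabotropic receptor Grm6 and the channel Trpm1. In rd10 retinas the rods die first, and bipolar cells lose their photoreceptor input. Tamsulosin blocks alpha-1 adrenergic receptors, metoprolol blocks the beta-1 adrenergic receptor, and bromocriptine activates D2-type dopamine receptors.

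The WT library gave 130 cluster 8 cells with 606774 UMIs in all, the rd10-vehicle library 149 cells with 547099 UMIs, and the rd10-TMB library 140 cells with 632075 UMIs. A UMI is a tag that counts 1 captured RNA molecule. The median cell had 4447, 3356 and 4220.5 UMIs in these libraries, so the rd10-vehicle cells were the shallowest. Levels are UMIs of a gene per 1000000 UMIs summed over the cluster 8 cells of a library (CPM), and the ranges in parentheses are exact 95% intervals that cover counting error only. A gene with 3 UMIs stood at 4.94, 5.48 and 4.75 CPM in WT, rd10-vehicle and rd10-TMB. Between 7 and 10 cell barcodes occurred in each pair of libraries, and none of them belonged to cluster 8 in both. In what follows, values without a library name are given in the order WT, rd10-vehicle, rd10-TMB.

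Cluster 8 made up 2.90% of WT cells (2.43% to 3.44%), 2.50% of rd10-vehicle cells (2.12% to 2.93%) and 2.91% of rd10-TMB cells (2.45% to 3.42%). The 3 intervals overlapped. Rod-rich and Mueller glia-rich clusters changed in share between the libraries, with cluster 1, led by rod transcripts, at 26.4%, 9.34% and 15.5% and cluster 0, led by Mueller glia transcripts, at 11.8%, 41.9% and 36.3%. Among the cells outside clusters 0 and 1, cluster 8 made up 4.70%, 5.13% and 6.04%, which put the WT library lowest. Among clusters 7 and 8, the clusters that carried the kainate receptor gene Grik1, it made up 47.6%, 45.6% and 52.2%. The position of the WT library among the 3 thus depended on the denominator.

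**Figure D1:**
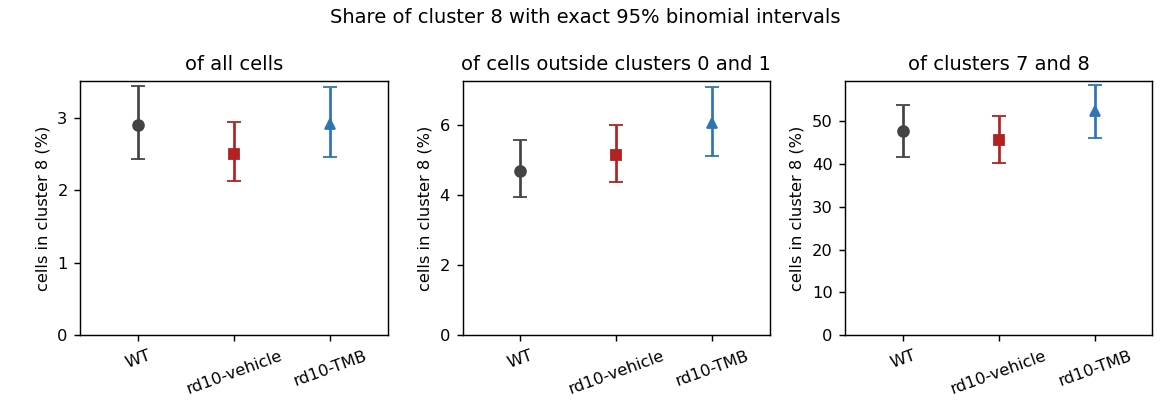
Share of cluster 8 among cells in each library, in percent, for 3 denominators in 3 panels, with exact 95% binomial intervals as bars. With all cells as the denominator the WT and rd10-TMB points lie at 2.90% and 2.91% and the rd10-vehicle point at 2.50%, and without clusters 0 and 1 the order becomes 4.70%, 5.13% and 6.04%.

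Each of the 4 marker genes was present in all 3 libraries. Irx6, an Iroquois homeobox transcription factor, lies at chr8:92674289-92680956 (GRCm38) and stood at 583 CPM (524 to 647) in WT, 479 (423 to 541) in rd10-vehicle and 437 (387 to 491) in rd10-TMB. Erbb4, the neuregulin receptor tyrosine kinase at chr1:68031884-69108576, stood at 359 CPM (313 to 410.3), 274 (232 to 322) and 301 (259 to 347). Both were highest in the WT library. Hcn4, a channel opened by hyperpolarization and cyclic nucleotides at chr9:58822949-58863175, stood at 440.0 CPM (389 to 496), 377 (327 to 432) and 359 (314 to 409). Fezf2, a zinc finger transcription factor, stood at 214, 179 and 165 CPM.

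The log2 ratio of rd10-vehicle to WT was -0.28 (-0.52 to -0.05) for Irx6 and -0.39 (-0.70 to -0.08) for Erbb4. For rd10-TMB over WT it was -0.42 (-0.65 to -0.19) for Irx6 and -0.29 (-0.55 to -0.03) for Hcn4. These intervals excluded 0 on counting error alone, which says nothing of the spread between mice. Between the rd10 libraries the log2 ratios, rd10-TMB over rd10-vehicle, were -0.13 for Irx6 and 0.13 for Erbb4, and both intervals included 0.

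The label was checked against marker lists. Of 7 listed OFF cone bipolar genes, 5 were at least 2-fold higher in cluster 8 than in the remaining cells and reached 20 CPM, pooled over the libraries. The same held for 945 (5.1%) of all 18545 genes with a UMI, or 13.9% of the 6788 genes that reached 20 CPM in cluster 8, and for 3 of 10 listed ON bipolar genes. Neto1, among the 5 OFF genes, reached that level through WT, at 44.5 CPM there and 7.31 and 9.49 CPM in the rd10 libraries. Grik1 stood at 841 CPM (769 to 917), 927 (848 to 1011) and 780.0 (713 to 852) in cluster 8, against at most 39.8 CPM in cluster 3, the largest cluster with ON cone bipolar transcripts. Isl1, the LIM homeobox factor of ON bipolar cells, stood at 46.1, 51.2 and 69.6 CPM in cluster 8 and at 588, 662 and 639.9 CPM in cluster 3. Grm6, the ON bipolar glutamate receptor, stood at 21.4, 45.7 and 60.1 CPM in cluster 8 and at 464, 541 and 569 CPM in cluster 3.

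Not every ON marker was low. Trpm1 stood at 371, 391 and 433 CPM in cluster 8. Pcp2, a modulator of G protein signalling, stood at 1905, 1535 and 1592 CPM in cluster 8 and at only 77.4, 132 and 147 CPM in cluster 7. Photoreceptor genes were measured too. Gnat2, the cone transducin alpha subunit, stood at 254, 223 and 239 CPM, and Gngt1, the rod transducin gamma subunit, at 1900.2, 1757 and 2055 CPM, against 113, 74.9 and 155 CPM for Gngt1 in cluster 2, the cluster with the rod bipolar transcripts. The high level of Gngt1 was shared with cluster 3, at 2581, 2229 and 2722 CPM, and in part with cluster 7, at 864, 878 and 1123 CPM.

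By subtype, 3 of 4 type 3a genes (Erbb4, Hcn4 and Irx6), 2 of 4 type 3b genes, 4 of 5 type 2 genes, 1 of 5 type 1 genes and 1 of 3 measured type 4 genes passed the same rule, against 5.1% of all genes. The lists share members, so these counts are not separate. Neto1, which counts for type 2, stood at 44.5, 7.31 and 9.49 CPM, and Otor is the gene that counts for type 4. In the largest of the groups into which cluster 8 is divided below, Neto1 stood at 2.78 CPM and Otor at 4.86 CPM. These 2 genes thus reached 20 CPM only through the remaining cells. Lhx3, a LIM homeobox gene of the type 2 list, stood at 80.8, 76.8 and 69.6 CPM. Of the 110 cells with a UMI of Lhx3, 63.6% also had Erbb4, against 66.0% of the 309 cells without Lhx3. Irx6 was found in 224 of the 274 cells with Erbb4 (81.8%), against 76.6% of the 145 cells without Erbb4. The 2 type 3b genes were Irx6, which is also on the type 3a list, and Fezf2, and the type 3b genes Prkar2b and Nnat were among those lowest against cluster 7. Summed, the type 3b list stood lower in cluster 8, at 852, 729 and 693 CPM, than in cluster 7, at 995, 1511 and 1433 CPM. The type 2 list summed to 1974, 1965 and 1555 CPM in cluster 8 and to 2124, 1973 and 1868 CPM in cluster 3, a cluster with ON transcripts. Most of the sum in cluster 8 was Nrxn3, at 1819, 1833 and 1433 CPM. The type 3a list, with 3 marker genes of the cluster among its 4, summed to 1429, 1190 and 1172 CPM in cluster 8. In cluster 7 it summed to 616, 1012 and 931 CPM. The type 3a list thus stood higher in cluster 8 than in cluster 7 in every library, while genes of other lists also passed the rule. No subtype is assigned here, and cluster 8 is called by its number and leading genes.

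**Figure D2:**
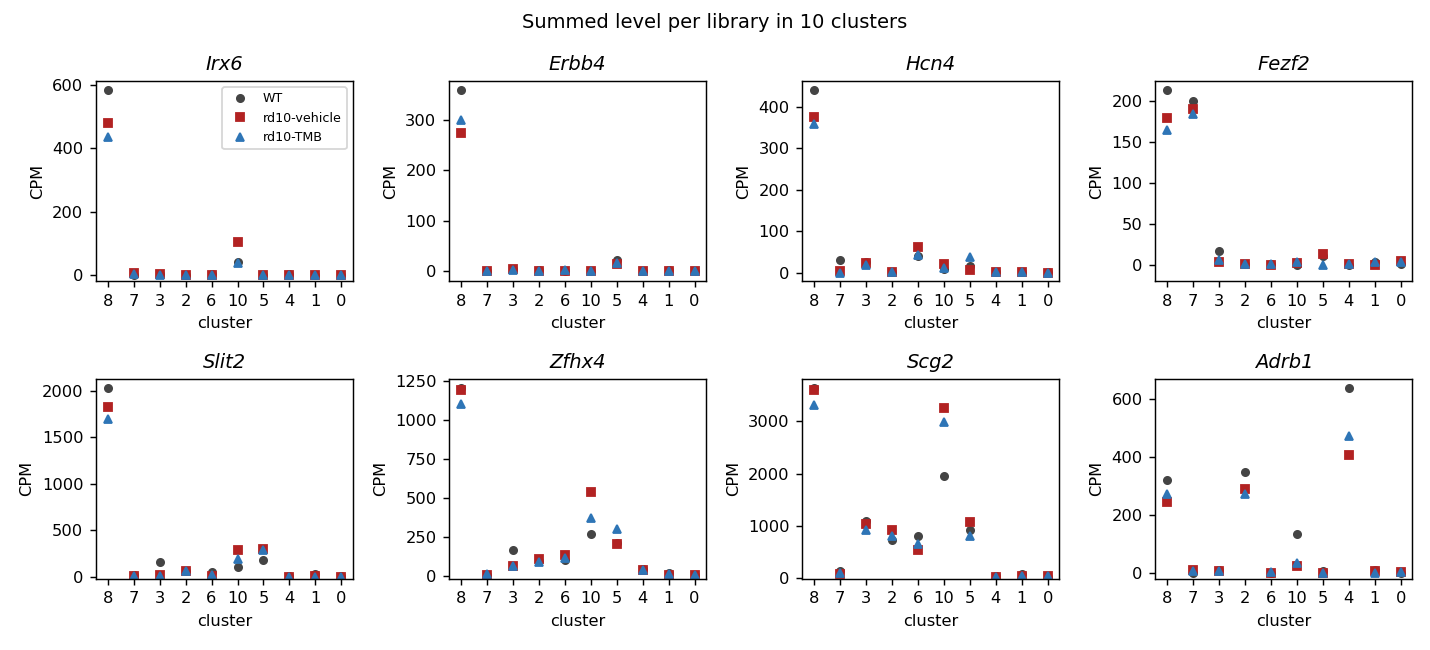
Levels of 8 genes in 10 clusters, with CPM on the vertical axis, the cluster number on the horizontal axis and 1 point for each library. Irx6, Erbb4 and Hcn4 stand far above their levels in clusters 7 and 3, while Fezf2 is at like levels in clusters 8 and 7, at 214, 179 and 165 CPM against 201, 190.3 and 184 CPM.

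When every cell was thinned to 1000 UMIs, 416 of the 419 cells could be used. Slit2 was then detected in 79.8% of them, Zfhx4 in 67.8%, Irx6 in 38.5%, Hcn4 in 29.1%, Erbb4 in 27.6% and Fezf2 in 17.8%. Without thinning, Irx6 was detected in 80.0% of cells and Erbb4 in 65.4%. In thinned cells of cluster 0, the Mueller glia-rich cluster that should lack these genes, each of them was found in under 0.5% of cells. Median depth before thinning was 4017 UMIs per cell in cluster 8 and 8652.5 in cluster 0.

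Cluster 7 was the nearest comparison, since it also carried Grik1, at 1364, 1319 and 1334 CPM. The folds that follow are a description, because the clusters were made from these same genes. Of 7617 genes, 260 (3.41%) were at least 2-fold higher and 218 (2.86%) at least 2-fold lower in cluster 8 than in cluster 7 in every library. Against cluster 3, 227 (2.44%) of 9301 genes were higher and 316 (3.4%) lower. Erbb4 headed the ranking and had no UMI at all in cluster 7. Slit2, a secreted axon guidance ligand, stood at 2030.4, 1831 and 1702 CPM in cluster 8 and at 21.8, 6.72 and 5.34 CPM in cluster 7. Zfhx4, a zinc finger homeobox factor, stood at 1201, 1189.9 and 1103 CPM in cluster 8 and at no more than 8.01 CPM in cluster 7. Scg2, a granin of dense-core vesicles, stood at 3639, 3597 and 3316 CPM in cluster 8 and at 123, 73.9 and 82.7 CPM in cluster 7.

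Among the genes most reduced relative to cluster 7 were Prkar2b, a regulatory subunit of protein kinase A, with a smallest log2 fold of -4.20 over the libraries, and Otor, Pcp4, Kcnip4, Gabrr3, Nnat and Nfib. Nfib, a nuclear factor I transcription factor, stood at 29.7, 38.4 and 26.9 CPM in cluster 8 and at 614, 454 and 499 CPM in cluster 7. Nnat, a small membrane protein listed for types 3a and 3b, stood at 46.1, 60.3 and 75.9 CPM in cluster 8 and at 586, 1003 and 929 CPM in cluster 7.

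Gene groups are counted next, on the same 2-fold rule in all 3 libraries, to be read against 3.41% of all genes higher and 2.86% lower than in cluster 7. Among 25 transcription factors 7 were higher in cluster 8 than in cluster 7 (Irx6, Irx5, Vsx1, Lhx3, Bhlhe23, Bhlhe22 and Zfhx4) and 8 were lower, among them Nfia, Nfib, Nfix, Sox6 and Meis2. Irx5, another Iroquois factor, stood at 282, 236 and 215 CPM in cluster 8 and had no UMI in cluster 7. Of 31 adhesion and axon guidance genes 10 were higher and 4 lower, against those same shares. Cdh8, a type II cadherin, stood at 287, 292 and 294 CPM in cluster 8 and at 3.97 CPM or less in cluster 7. Ntng1, the membrane-anchored netrin G1, stood at 1434, 1336 and 1479 CPM in cluster 8, at 33.8, 35.8 and 56.0 CPM in cluster 7 and at 1262, 1087 and 1128 CPM in cluster 2. Plxna4, a semaphorin receptor, stood at 211, 181 and 180.4 CPM in cluster 8 and at 83.4, 51.5 and 37.4 CPM in cluster 7. Each of these genes was higher in cluster 8 in every library.

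Of 19 HCN, potassium and sodium channel genes 4 were higher in cluster 8 (Hcn4, Kcnb2, Kcng4 and Kcnh7) and 4 lower (Kcnd3, Kcnh5, Kcnip4 and Kcnma1), against 3.41% and 2.86% of all genes. Kcnh7, an ERG-type potassium channel, stood at 237, 239 and 180.4 CPM in cluster 8 and at no more than 2.67 CPM in cluster 7. Of the inhibitory receptor genes Gabrb1, a beta subunit of the GABA-A receptor, was higher and Gabrr3, a GABA receptor subunit, lower. The calcium-binding proteins Cabp5 and Scgn stood at 1582, 1773 and 1895 CPM and at 1717, 1598 and 1441 CPM in cluster 8, and at 569.9, 920.2 and 1027 CPM and at 834, 374 and 398 CPM in cluster 7.

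Immediate early genes differed in 1 direction: 9 of 11 were at least 2-fold lower in cluster 8 than in cluster 7 and none higher, against 2.86% of all genes lower, whereas none of 11 passed that fold in either direction against cluster 3. The 9 were Fos, Fosb, Jun, Junb, Egr1, Atf3, Ier2, Nr4a1 and Dusp1. Fos stood at 707, 784 and 842 CPM in cluster 8 and at 2423, 2740.3 and 3170.3 CPM in cluster 7. The clusters also differed in cell quality measures. The median share of mitochondrial UMIs was 5.61%, 5.17% and 5.03% in cluster 8, 7.69%, 7.98% and 9.03% in cluster 7 and 8.08%, 6.35% and 6.63% in cluster 3. The median cell of cluster 7 had 3660, 2532 and 3051 UMIs, fewer than in cluster 8 in every library, and the part of these differences in the immediate early values was not tested.

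The 250 bases upstream of the start site are shown for genes described here by their values, from the RefSeq promoter table of GRCm38.p6. Erbb4, Hcn4 and Fezf2 are marker genes, Slit2, Cdh8 and Scg2 were among the genes with the highest folds, and Adrb1 is described below. Capitals mark TGACGTCA, the palindromic cyclic AMP response element, where it was found, here in Scg2 alone. Irx6 and Zfhx4 had no entry.
Erbb4, chr1:69108060-69108309, minus strand: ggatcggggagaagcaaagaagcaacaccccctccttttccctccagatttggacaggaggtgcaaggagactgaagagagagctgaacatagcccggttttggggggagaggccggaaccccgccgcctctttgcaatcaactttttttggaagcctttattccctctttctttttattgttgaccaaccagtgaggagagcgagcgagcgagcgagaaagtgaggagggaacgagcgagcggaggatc
Hcn4, chr9:58822699-58822948, plus strand: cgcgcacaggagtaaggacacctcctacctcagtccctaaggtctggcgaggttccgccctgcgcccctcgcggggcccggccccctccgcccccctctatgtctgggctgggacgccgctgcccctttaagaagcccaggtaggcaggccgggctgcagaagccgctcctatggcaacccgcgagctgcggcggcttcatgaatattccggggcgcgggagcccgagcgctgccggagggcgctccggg
Fezf2, chr14:12345866-12346115, minus strand: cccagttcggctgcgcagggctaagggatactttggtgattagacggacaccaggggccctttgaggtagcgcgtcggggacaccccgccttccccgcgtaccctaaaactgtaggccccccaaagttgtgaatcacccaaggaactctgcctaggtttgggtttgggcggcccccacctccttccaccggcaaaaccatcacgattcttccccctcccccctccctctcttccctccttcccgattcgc
Slit2, chr5:47982905-47983154, plus strand: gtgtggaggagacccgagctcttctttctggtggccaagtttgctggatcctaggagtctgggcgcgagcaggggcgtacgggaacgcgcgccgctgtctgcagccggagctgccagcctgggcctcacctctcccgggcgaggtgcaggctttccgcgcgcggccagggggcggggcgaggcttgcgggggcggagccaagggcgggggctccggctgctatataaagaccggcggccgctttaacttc
Cdh8, chr8:99416472-99416721, minus strand: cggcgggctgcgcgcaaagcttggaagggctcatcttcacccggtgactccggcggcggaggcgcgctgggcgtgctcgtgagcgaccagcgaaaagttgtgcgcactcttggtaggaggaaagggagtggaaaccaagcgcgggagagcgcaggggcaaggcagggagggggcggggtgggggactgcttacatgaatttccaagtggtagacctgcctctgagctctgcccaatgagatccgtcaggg
Scg2, chr1:79440027-79440276, minus strand: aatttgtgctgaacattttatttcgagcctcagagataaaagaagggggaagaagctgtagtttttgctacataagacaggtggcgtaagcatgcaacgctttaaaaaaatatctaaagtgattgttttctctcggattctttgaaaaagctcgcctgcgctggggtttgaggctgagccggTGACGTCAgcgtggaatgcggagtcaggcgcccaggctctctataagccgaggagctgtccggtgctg
Adrb1, chr19:56721867-56722116, plus strand: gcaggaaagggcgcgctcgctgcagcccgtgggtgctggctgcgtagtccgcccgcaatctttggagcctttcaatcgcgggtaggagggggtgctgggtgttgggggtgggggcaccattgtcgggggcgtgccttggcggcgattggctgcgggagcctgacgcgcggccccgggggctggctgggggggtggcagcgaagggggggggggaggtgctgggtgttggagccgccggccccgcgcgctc

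Of 26 genes with the highest folds of cluster 8 over cluster 7 or over all other cells, 18 had an entry, with 23 promoters. On both strands, TGACGTCA was in 3 of the 23 (13.0%), those of Clstn2, Hhip (with only 10, 8 and 13 UMIs in cluster 8) and Scg2, and in 1.55% of all 32817 promoters of the same length or 3.28% of the 5882 promoters of genes measured in cluster 8. TAATCC was in 1 of the 23, for Pde1a, and in 6.25% of all promoters and 5.49% of those of measured genes. TAATTA was in none of the 23 and in 4.85% of all promoters and 2.35% of those of measured genes. A match here is a run of letters in a window and does not show that a factor bound there.

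Adrb1, the gene of the beta-1 adrenergic receptor that metoprolol blocks, lies at chr19:56722117-56725150 and was present in cluster 8 at 321 CPM (278 to 369.8) in WT, 247 (207 to 292) in rd10-vehicle and 274 (234 to 318) in rd10-TMB, from 195, 135 and 173 UMIs. Pooled over the libraries cluster 8 stood at 282 CPM (258 to 307), rank 3 among the 21 clusters. Only cluster 4, which carried cone transcripts, at 485 CPM and cluster 2 at 300.4 CPM were higher, and the intervals of clusters 2 and 8 overlapped. Cluster 7 held 0, 8.96 and 8.01 CPM of Adrb1 and cluster 3 held 9.32, 6.30 and 6.90 CPM, so cluster 8 stood above clusters 7 and 3 for Adrb1 in every library. The log2 ratio for Adrb1 was -0.38 (-0.71 to -0.06) for rd10-vehicle over WT and 0.15 (-0.18 to 0.49) for rd10-TMB over rd10-vehicle.

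Further adrenergic and dopamine receptor genes had fewer UMIs in cluster 8 than Adrb1. Adra1a, an alpha-1 receptor, had 3, 9 and 10 UMIs in cluster 8, or 12.3 CPM pooled (7.72 to 18.7), which was the highest value among the clusters but rests on 22 molecules. Adra1b and Adra1d had no UMI in cluster 8. Drd1, the D1 dopamine receptor, stood at 23.5 CPM pooled in cluster 8 against 281 CPM in cluster 7 and 240.1 CPM in cluster 3. Drd4, a D2-type receptor, stood at 15.7 CPM pooled in cluster 8 against 152 CPM in cluster 7. Drd2, the D2 receptor itself, had 1 UMI in cluster 8, or 0.56 CPM pooled, against 121 CPM in cluster 2 and 43.6 CPM in cluster 3.

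**Figure D3:**
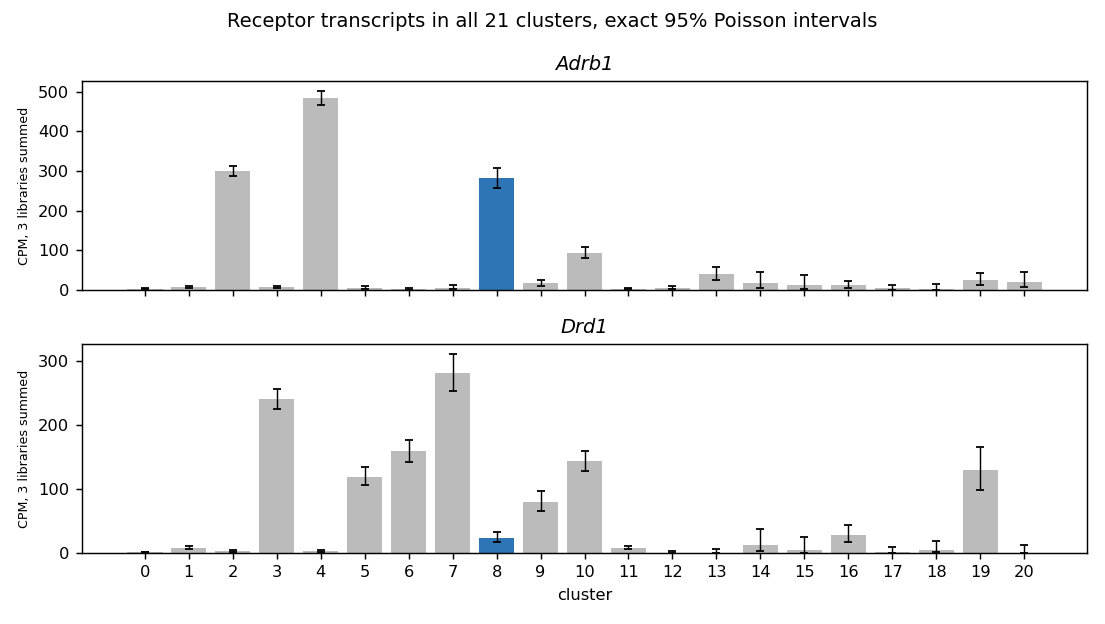
Levels in CPM of Adrb1 and Drd1 in all 21 clusters, summed over the 3 libraries, with exact 95% Poisson intervals as bars and cluster 8 in blue. Adrb1 in cluster 8 lies at 282 CPM, near cluster 2 at 300.4 CPM and far above cluster 7, while Drd1 shows the opposite order, at 23.5 CPM in cluster 8 and 281 CPM in cluster 7.

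Comparing the libraries within cluster 8, 5686 genes had at least 50 UMIs in all. A gene is counted here when its ratio, with a pseudocount of 1 UMI, was at least 2-fold. The comparisons share libraries, so their counts are not independent. For rd10-vehicle over WT, which asks what differs in the diseased retina, 58 genes (1.02%) were higher and 44 (0.774%) lower. For rd10-TMB over WT, 36 (0.633%) were higher and 21 (0.369%) lower. For rd10-TMB over rd10-vehicle, the comparison of the treatment, 36 (0.633%) were higher and 23 (0.405%) lower. In either direction together these were 102 (1.79%), 57 (1%) and 59 (1.04%) genes, of which 95 (1.67%), 57 (1%) and 53 (0.932%) also had a counting interval that excluded 0. The median log2 ratio of all genes was 0.00, 0.02 and 0.01 in these comparisons. All log2 ratios carry that pseudocount and their intervals do not.

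Ranked over genes whose UMIs in the pair reached 100, the highest ratio of rd10-vehicle to WT belonged to Mt1, a metallothionein that binds zinc and copper. Mt1 stood at 77.5 CPM (56.9 to 103) in WT, 364 (315 to 418) in rd10-vehicle and 294 (253 to 339.7) in rd10-TMB. The log2 ratio was 2.21 (1.77 to 2.72) for rd10-vehicle over WT and 1.90 (1.46 to 2.42) for rd10-TMB over WT. In the Mueller glia-rich cluster 0, Mt1 stood at 2102, 6966 and 5594 CPM. Mt2, another metallothionein, stood at 28.0, 64.0 and 63.3 CPM in cluster 8.

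Apoe, the lipid carrier that is among the main Mueller glia transcripts, ranked next, at 36.3 CPM, 172 CPM and 159.8 CPM in cluster 8, with a log2 ratio of rd10-vehicle to WT of 2.20 (1.56 to 2.99). Cluster 7 had 29.8, 255 and 197 CPM of Apoe and cluster 0 had 18625, 24577 and 24466 CPM. All 11 listed Mueller glia markers, Apoe among them, had UMIs in cluster 8. They summed to 169.8, 536 and 430.3 CPM, a sum that includes Apoe and had the same order as the share of cluster 0 among all cells. The part of RNA from these cells in the Apoe and Mt1 values was not tested.

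Rod transcripts moved the other way. Gnat1, the rod transducin, stood at 163, 36.6 and 96.5 CPM in cluster 8, a log2 ratio of rd10-vehicle to WT of -2.10 (-2.93 to -1.45). Cluster 3 showed Gnat1 at 221, 63.7 and 134 CPM, and the share of the rod-rich cluster 1 among all cells had the same order. The summed rod list stood at 4013, 3067 and 3675 CPM in cluster 8, of which Gngt1 made up a large part. Whether these UMIs came from free rod RNA was not tested.

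Ccdc85a and Ndn also had large ratios and are on none of the lists of other cell classes. Ccdc85a, a coiled-coil protein, stood at 92.3 CPM (69.7 to 119.8), 186 (152 to 226) and 146 (117 to 179) in cluster 8, at 4.48 CPM or less in clusters 7 and 3, and at up to 27.2 CPM in cluster 4. The interval of its log2 ratio, rd10-vehicle over WT, was 0.53 to 1.51. Ndn, a melanoma antigen family member of neurons, stood at 133, 276 and 219.9 CPM, a log2 ratio of 1.04 (0.65 to 1.46). Gnb3, the G protein beta subunit of ON bipolar cells and cones and a member of the cone list, stood at 77.5, 225 and 152 CPM, a log2 ratio of 1.52 (1.04 to 2.05), and at 1249, 1658 and 1448 CPM in cluster 3. Both rd10 libraries were above WT for each of the 3 genes.

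Snhg11, a long noncoding RNA of neurons, was lower in both rd10 libraries, at 798 CPM (728 to 872), 395 (344 to 451) and 386 (339 to 438). The log2 ratio was -1.01 (-1.25 to -0.78) for rd10-vehicle over WT and -1.04 (-1.28 to -0.82) for rd10-TMB over WT. Snhg11 was also highest in WT in cluster 7, at 632, 311 and 342 CPM, and in cluster 3, at 693, 201 and 253 CPM. In those clusters rd10-TMB stood above rd10-vehicle. It is on the amacrine list, whose sum stood at 834, 411 and 396 CPM in cluster 8, nearly all of it Snhg11, and the amacrine factors Tfap2a and Prdm13 had no UMI there. The same list summed to 9149, 8219 and 7145 CPM in cluster 5, which held 10.3% of WT cells and 0.722% and 0.727% of the rd10 cells. The part of these cells in the Snhg11 value was not tested.

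AC149090.1, a gene known by its clone name, had the lowest ratio of rd10-TMB to WT and was lower in both rd10 libraries, at 254 CPM (215 to 297), 109.7 (83.7 to 141) and 72.8 (53.3 to 97.1). It had the same order in cluster 7, at 299.9, 166 and 117 CPM, in cluster 3, at 445, 250.4 and 204 CPM, and in cluster 0, at 204, 82.1 and 73.6 CPM. Ppp2r5c, a regulatory subunit of protein phosphatase 2A, stood at 181 CPM (149 to 218), 85.9 (63.1 to 114) and 133 (106 to 165) in cluster 8, a log2 ratio of rd10-vehicle to WT of -1.06 (-1.60 to -0.57). In cluster 7, Ppp2r5c stood at 69.5, 53.7 and 74.7 CPM. Dach1, a transcriptional cofactor, stood at 54.4, 124 and 82.3 CPM in cluster 8 and at 185, 157 and 184 CPM in cluster 7.

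Photoreceptor transcripts were also among the highest ratios of rd10-TMB over rd10-vehicle. Pde6g, the inhibitory subunit of the rod phosphodiesterase, stood at 130.2, 67.6 and 138 CPM, Pdc, the photoreceptor protein phosducin, at 159.9, 76.8 and 136 CPM, and Pde6h, the cone counterpart of Pde6g, at 29.7, 60.3 and 109 CPM. The interval of the log2 ratio, rd10-TMB over rd10-vehicle, was 0.45 to 1.62 for Pde6g. All 9 cone markers had UMIs in cluster 8, and they summed to 1403, 1601 and 1859 CPM. Of the 69 UMIs of Pde6h in rd10-TMB, 42 came from 1 cell, and Pde6h stood at 43.6 CPM in that library without it. Opn1mw, the medium-wavelength cone opsin, had 6, 23 and 68 UMIs, or 9.89, 42.0 and 108 CPM, and fell short of the 100 UMIs over both libraries that the ranking required. Its log2 ratio of rd10-TMB to WT, 3.24 (2.25 to 4.94), was above those of Apoe and Mt1. Of the 68 UMIs of Opn1mw in rd10-TMB, 58 came from 1 cell, and without it the level was 16.2 CPM. The cells with most UMIs of a gene, and Opn1mw itself, were looked at after seeing the data. The cone-rich cluster 4 held 5199, 5017 and 4769 CPM of Opn1mw, and the part of photoreceptor RNA in these values was not tested.

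Between the rd10 libraries, Aplp1, an amyloid precursor-like protein, stood at 238 CPM (199 to 282) in rd10-vehicle and 433 (384 to 488) in rd10-TMB, with 319.7 (276 to 368) in WT. Its log2 ratio, rd10-TMB over rd10-vehicle, was 0.86 (0.56 to 1.18). In cluster 7, Aplp1 stood at 518, 439 and 480.4 CPM, a smaller spread. Rpgrip1, a ciliary protein, had the lowest ratio, -1.19, at 124, 157 and 68.0 CPM. Neo1, a receptor of netrin and of repulsive guidance molecules, stood at 65.9, 74.9 and 125 CPM, and Cacna2d3, a calcium channel subunit, at 105, 111 and 63.3 CPM.

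**Figure D4:**
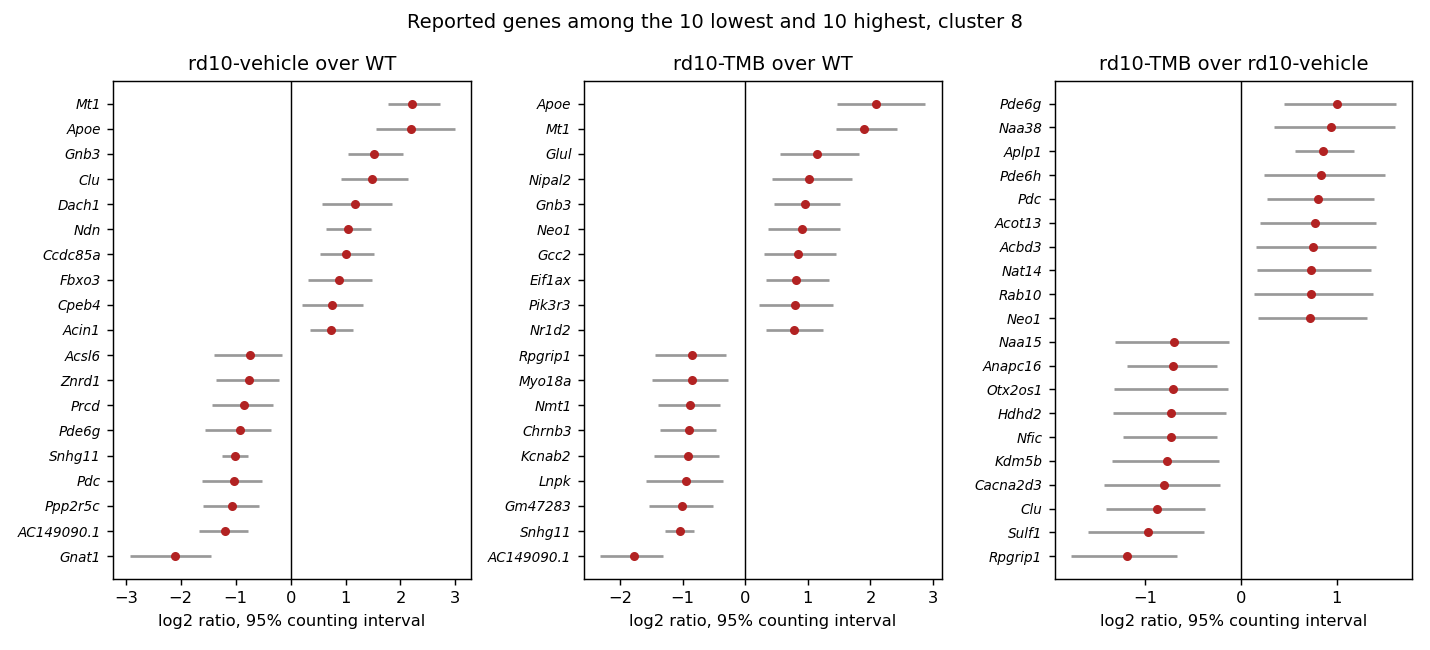
Reported genes among the 10 highest and the 10 lowest log2 ratios between libraries of cluster 8, for genes whose UMIs in the pair reached 100, with 95% counting intervals as bars and 1 panel for each pair of libraries. Mt1 and Apoe lead both comparisons with WT on the high side, at 2.21 and 2.20 for rd10-vehicle, and Gnat1 stands lowest for rd10-vehicle over WT, at -2.10.

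Of 24 listed ionotropic glutamate receptor genes and partners, 4 had at least 50 UMIs, and none of the 4 passed 2-fold in any comparison. Neto1, a partner of kainate receptors, was under that minimum, with 27, 4 and 6 UMIs, or 44.5, 7.31 and 9.49 CPM. The UMIs of Neto1 lay in 8, 3 and 1 cells, and 33 of the 37 came from a group of 51 cells described below. Neto1 was chosen after its values were seen. Gria2, an AMPA receptor subunit, stood at 719, 700.1 and 657 CPM. Grik1 had a log2 ratio, rd10-TMB over rd10-vehicle, of -0.25 (-0.43 to -0.07). None of 22 ribbon and vesicle release genes passed 2-fold in any comparison, and their medians were 0.01, -0.05 and -0.07 for rd10-vehicle over WT, rd10-TMB over WT and rd10-TMB over rd10-vehicle. Slc17a7, the vesicular glutamate transporter, stood at 875, 927 and 919 CPM. Cacna2d4, a subunit of the ribbon calcium channel, stood at 241, 281 and 199 CPM.

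Of 14 HCN and potassium or sodium channel genes none passed 2-fold, with medians of -0.12, -0.31 and -0.22. In rd10-TMB over WT 11 of the 14 were below 0, with 4 intervals wholly below 0, where 3.10% of intervals of all genes were. Kcnab2, a potassium channel beta subunit, stood at 153, 91.4 and 80.7 CPM, a log2 ratio over WT in rd10-TMB of -0.91 (-1.45 to -0.42). Chrnb3, a nicotinic receptor subunit, stood at 201 CPM, 170.0 CPM and 108 CPM, a log2 ratio over WT in rd10-TMB of -0.89 (-1.35 to -0.46). Its partner Chrna6 stood at 194, 149.9 and 159.8 CPM. Of 9 measured inhibitory receptor genes none passed 2-fold.

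Of 21 transcription factors none passed 2-fold in any comparison. Lhx4, a LIM homeobox gene, stood at 397 CPM (349 to 451), 585 (523 to 653) and 439.8 (389.6 to 495), so the rd10-vehicle library stood apart from the others. The log2 ratio of Lhx4 was 0.56 (0.31 to 0.81) for rd10-vehicle over WT and -0.41 (-0.65 to -0.17) for rd10-TMB over rd10-vehicle. Otx2, a homeobox factor of photoreceptors and bipolar cells, stood at 478, 439 and 379.7 CPM. Of 23 adhesion genes none passed 2-fold, and Nrxn3, a presynaptic neurexin, was lowest in rd10-TMB, at 1819, 1833 and 1433 CPM, a log2 ratio to rd10-vehicle of -0.35 (-0.49 to -0.22).

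The stress and degeneration list had 13 measured genes, with medians of 0.40, 0.31 and -0.02. Both medians over WT fell below 0 when genes needed at least 200 UMIs. In rd10-vehicle over WT 2 were at least 2-fold higher, Mt1 and Mt2, with H2-D1 just under the limit at a log2 ratio of 0.99, and in rd10-TMB over WT 3 were, the same pair and H2-D1, where 1.02% and 0.633% of all genes were that much higher. The summed Mueller glia markers moved the same way in cluster 8, at 169.8, 536 and 430.3 CPM, and their part in the list's values was not tested. Stat3, a factor activated by cytokines, stood at 46.1, 89.6 and 80.7 CPM, and the class I gene H2-D1 at 29.7, 60.3 and 74.4 CPM. Of 9 measured immediate early genes none passed 2-fold, and all 9 were above 0 in rd10-TMB over WT, with a median of 0.32 and 6 intervals above 0, where 52.5% of all genes were above 0 and 4.41% of all intervals were, or 15.5% for genes with at least 500 UMIs. For rd10-TMB over WT the immediate early list also had medians above 0 in other bipolar clusters, at 0.39 in cluster 7, 0.25 in cluster 3 and 1.16 in cluster 2. In cluster 8 Junb stood at 168, 263 and 259 CPM and Jund at 399, 475 and 573 CPM. None of 12 clock genes passed 2-fold, with the nuclear receptor Nr1d2 at 110.4, 159 and 189.9 CPM, and of 10 chaperone genes Dnajb1, a cochaperone, did so in rd10-TMB over rd10-vehicle alone, at 46.1, 80.4 and 38.0 CPM.

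Genes of the respiratory chain, which makes most ATP in neurons, differed little one by one and none passed 2-fold, but those encoded in the nucleus lay mostly above 0 in rd10-TMB over rd10-vehicle. Of 37 nuclear genes of complex I, 32 were above 0, 12 had intervals wholly above 0 and none wholly below, with a median log2 ratio of 0.23. Over all genes 50.9% were above 0, or 57.2% of those with at least 200 UMIs and 65.4% of those with at least 500. Of 41 nuclear genes of complexes II to V, 38 were above 0, 13 intervals lay above 0 and none below, with a median of 0.19. Over the 1711 genes with at least 200 UMIs the median was 0.04 and 9.06% of intervals lay above 0, and over the 560 genes with at least 500 UMIs the median was 0.08 and 19.3% lay above 0. For rd10-vehicle over WT the medians of these lists were 0.05 and 0.02.

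Ndufa13, a complex I subunit, stood at 469.7 CPM (417 to 528), 441 (387 to 499.8) and 628 (568 to 693), a log2 ratio, rd10-TMB over rd10-vehicle, of 0.51 (0.28 to 0.75). Uqcrh, of complex III, stood at 493, 550.2 and 729 CPM, and Atp5j, of the ATP synthase, at 626, 539 and 744 CPM. For all 3 genes the rd10-TMB library was the highest.

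The 13 genes encoded by mitochondrial DNA lay on the other side. All 13 were below 0 in rd10-TMB over rd10-vehicle, with a median of -0.22 and 11 intervals wholly below 0, where 2.73% of intervals of all genes and 6.79% of those of genes with at least 500 UMIs were. All 13 were also below 0 in rd10-TMB over WT, with a median of -0.27. mt-Cytb, the complex III subunit, stood at 7699.7 CPM (7481 to 7924), 7695 (7464 to 7931) and 6132 (5941 to 6328). mt-Nd3, of complex I, stood at 1032, 865 and 631 CPM, while mt-Co1, of complex IV, differed less, at 11952, 11226 and 10630.1 CPM. When cells above 10% mitochondrial UMIs were left out, the median of rd10-TMB over rd10-vehicle was -0.05 and that of rd10-TMB over WT -0.14.

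In cluster 7 the nuclear lists had medians of 0.18 and 0.13 for rd10-TMB over rd10-vehicle, while the mitochondrially encoded list stood at 0.18, above 0. In cluster 3 the 3 medians were 0.08, 0.11 and 0.04, and in cluster 2 they were 0.17, 0.13 and -0.08. The difference between clusters was not tested.

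**Figure D5:**
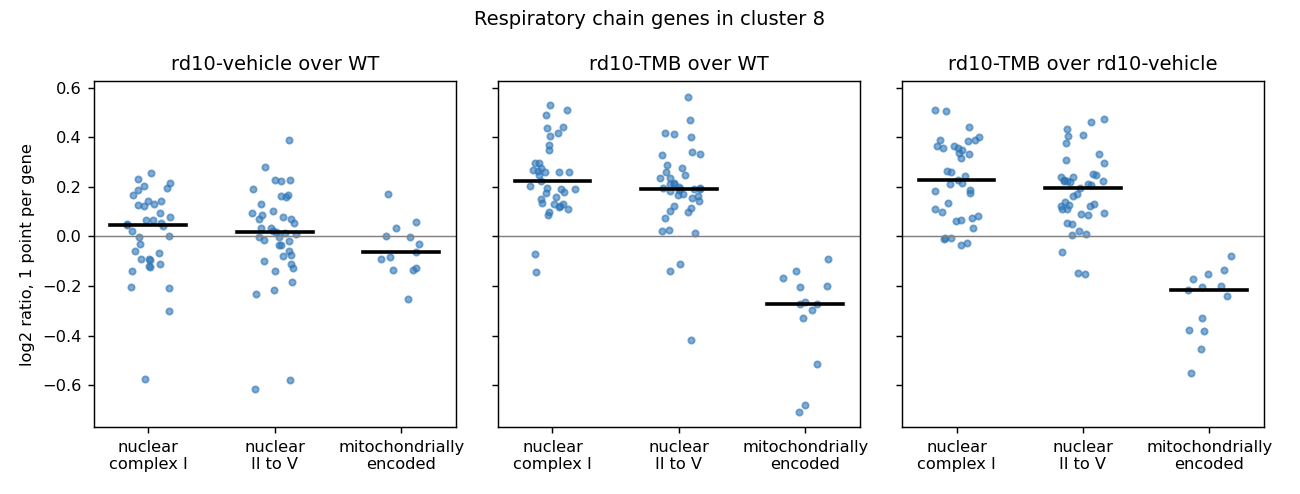
Log2 ratios between libraries of cluster 8 for genes of the respiratory chain, with 1 point for each gene and the list median as a black line, grouped as nuclear complex I, nuclear complexes II to V and mitochondrially encoded. For rd10-TMB over rd10-vehicle the nuclear lists have medians of 0.23 and 0.19 and all 13 mitochondrially encoded genes lie below 0, with a median of -0.22.

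Cluster 8 was also divided into 3 groups by k-means on its variable genes. The largest held 367 cells (87.6%), another 51 cells (12.2%) and the last a single cell. The division depended on depth: with cells thinned to 1000 UMIs, an alternative chosen after seeing the data, the 3 groups held 36.1%, 34.9% and 29.1% of 416 cells, and no group of the smaller size was recovered. The group of 51 made up 10% of WT cells (5.43% to 16.5%), 12.1% of rd10-vehicle cells (7.32% to 18.4%) and 14.3% of rd10-TMB cells (8.95% to 21.2%) of cluster 8, with overlapping intervals. The cells of this group had a median of 6651 UMIs, against 3850 in the large group.

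The values that follow are a description of the 51 cells without thinning. Pcp4, a calmodulin-binding peptide, stood at 1043 CPM in the 51 cells and 29.2 CPM in the rest of cluster 8, and Otor at 136 CPM and 4.86 CPM. Cabp1, a calcium-binding protein, stood at 266 CPM and 5.56 CPM, and Cck, the neuropeptide cholecystokinin, at 271 CPM and 7.64 CPM. Cluster 7 carried Pcp4 at 4305, 3797 and 3720.0 CPM and Otor at 569.9, 627 and 667 CPM, but Cck at no more than 21.8 CPM. Of the 51 cells, 22 had at least 5 UMIs of Pcp4 and 7 had at least 2 of Cck, and 2 cells had both. Irx6 stood at 318 CPM in the 51 cells and 543 CPM in the rest, Erbb4 at 176 CPM and 345 CPM, and Adrb1 at 165 CPM and 310 CPM. Ndnf, a secreted neurotrophic factor, stood at 159 CPM and 6.25 CPM, and it was high in cluster 3, at 706, 986 and 1006 CPM, and low in cluster 7, at 67.5, 53.7 and 64.0 CPM. Cck was high in cluster 10, at 1343, 2620.3 and 2762 CPM. Higher depth and transcripts of several other clusters thus went together in this group, and the part of cells captured in pairs was not tested. Without these cells and the single cell, 88 genes passed 2-fold in rd10-vehicle over WT, 56 in rd10-TMB over WT and 59 in rd10-TMB over rd10-vehicle.

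Several other marker lists had few UMIs in cluster 8. The summed lists stood at 13.2, 12.8 and 6.33 CPM for horizontal cells, with Lhx1 and Onecut1 at 0, at 11.5, 3.66 and 7.91 CPM for ganglion cells, at 6.59, 12.8 and 4.75 CPM for microglia and at 13.2, 12.8 and 11.1 CPM for endothelial cells, and the pericyte list had 0, 6 and 2 UMIs. The astrocyte list was higher, at 292, 302 and 294 CPM, nearly all of it Aldoc, a glycolytic aldolase, at 290.1, 298 and 293 CPM, while the astrocyte factor Pax2 had no UMI. The same list stood at 411, 381 and 403 CPM in cluster 7 and at 359, 369 and 372 CPM in cluster 3. The rod bipolar list stood at 85.7, 67.6 and 96.5 CPM in cluster 8, against 6243, 5505 and 6097 CPM in cluster 2.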

How the data were processed

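Retinas were dissociated and run on a droplet platform, and the authors aligned the reads and counted UMIs with Cell Ranger 6.0.1. Per the study's methods, doublets were removed with Scrublet, cells were filtered, and Harmony and Seurat 3.2.2 were used for integration and clustering, before deposit. The deposited matrix holds natural log values that the authors made by scaling each cell's counts to a fixed total. From the deposited cell table each cell's total count, number of detected genes, library and cluster were used. UMI counts were recovered from the matrix and this table, and of 32620606 entries 100% were whole within 0.001 UMI. The mitochondrial percent of a cell was computed from its recovered UMIs of genes encoded by mitochondrial DNA. No doublet caller was run here. Some genes that meet the rules below are not reported here.

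Counts of cluster 8 cells were summed per library and divided by the total. Poisson, Clopper-Pearson and exact conditional intervals (95%) cover counting error only. With 1 library per group no test was possible. Genes had at least 50 UMIs over the 3 libraries. K-means used 10 principal components of 500 variable genes. Named genes were the markers, members of the fixed lists with 50 UMIs, the 10 highest and 10 lowest ratios between libraries for genes whose UMIs in the pair reached 100, the 15 highest and 10 lowest folds over cluster 7, the 15 highest over all other cells and the 5 highest of each k-means group. Other genes that stand beside a result, such as drug receptors under 50 UMIs, were chosen after their values were seen. The members and lists were chosen with earlier results of these data known. Alternatives covered scaling, filters, thinning to 1000 UMIs and cell filters. Python 3.11.15, numpy 2.4.6, scipy 1.17.1, pandas 2.3.3 and scikit-learn 1.9.0 were used. The statistics were tested on simulated data.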

Additional observations from a re-analysis of the deposited data

How the results depend on the processing

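No paired analysis was possible because each group is 1 library. Numbers of genes past 2-fold are given in the order rd10-vehicle over WT, rd10-TMB over WT, rd10-TMB over rd10-vehicle, against 102, 57 and 59 as reported. They were 155, 96 and 93 with the mean over cells, 458, 355 and 383 with a minimum of 20 UMIs, 10, 5 and 2 with a minimum of 200 UMIs, 618, 503 and 533 at 1.5-fold, and 31, 35 and 33 in cells thinned to 1000 UMIs. With WT restricted to Xist-positive cells lacking Y-linked UMIs, 99 passed for rd10-TMB over WT and 37 for rd10-TMB over rd10-vehicle. The reported split for rd10-TMB over WT, 36 higher and 21 lower (63.2% higher), was 51 and 45 with the mean over cells, 14 and 21 thinned, 2 and 3 at 200 UMIs, 179 and 176 at 20 UMIs, 250 and 253 at 1.5-fold and 28 and 28 without the smaller k-means group. That for rd10-vehicle over WT, 58 and 44, was 294 and 324 at 1.5-fold and 43 and 45 without that group, and that for rd10-TMB over rd10-vehicle, 36 and 23, was 185 and 198 at 20 UMIs, so which direction held more genes depended on the setting. By construction more genes enter at 20 UMIs (8561 against 5686), fewer genes or UMIs enter at 200 UMIs and under thinning, and a lower fold limit counts more genes. The Xist restriction left both rd10 libraries unchanged. For rd10-TMB over rd10-vehicle it acted only through the UMI minimum over the 3 libraries, which 5108 genes then met. The cause of the other changes was not tested. The share of cluster 8 was 47.6%, 45.6% and 52.2% of clusters 7 and 8, 4.70%, 5.13% and 6.04% outside clusters 0 and 1, and 3.92%, 2.74% and 3.40% of cells with at least 1000 genes, which put WT highest. Thinned, 106 genes were higher and 110 lower than in cluster 7 (260 and 218 as reported) and 101 and 166 than in cluster 3 (227 and 316). The largest k-means group held 36.1% of cells when they were thinned, an alternative chosen after seeing the data, against 87.6%, and the group of 51 cells was not recovered. Signs turned for the stress list at 200 UMIs (-0.061 for rd10-vehicle and -0.089 for rd10-TMB over WT), the inhibitory receptor list (-0.059, thinned, rd10-vehicle over WT), the transcription factors (0.10, thinned, rd10-TMB over rd10-vehicle), the mitochondrially encoded list (0.051, WT restricted to Xist-positive cells, rd10-vehicle over WT), Pde6g (0.17, thinned, rd10-vehicle over WT) and Pde6h in rd10-TMB over rd10-vehicle (-0.079 with the mean over cells, -0.51 without the 5% of cells with most UMIs, -0.45 without cells with at least 1% markers of other classes and -0.50 without the 51 cells and the single cell, also chosen after seeing the data). The other list medians were unchanged within the counting interval in 535 cases and moved in 36, and values of named genes in 635 and 20.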
